A study of Mus musculus with 8 samples.

Results

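The fatty acid binding proteins (FABPs) are small cytosolic proteins that carry long-chain fatty acids and related lipids within cells. Members of the family, Fabp1, Fabp2, Fabp3, Fabp4, Fabp5 and Fabp7, were chosen by symbol, and all 6 genes were found among the 24462 genes with a symbol in the files. The RNA sequenced was that of liver and subcutaneous fat, from C57BL/6 males, with 2 libraries each of WT and MKRN1-null mice per tissue and 8 in all. All mice had been put on a high-fat diet (HFD) at 6 weeks of age for 19 weeks, and the labels give an age of 24 weeks at collection. MKRN1 is an E3 ubiquitin ligase, and its loss was not limited to one tissue. In the study, body weight on this diet differed with genotype, and the effects of both cannot be told apart here. No chow-fed mice were among the libraries. Nothing in the labels says which liver and fat came from the same mouse.

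Each FABP holds its ligand inside a barrel of strands closed by a short helical lid, and the members differ mainly in the cells that make them. FABP1 is the abundant carrier of hepatocytes and binds bulky ligands as well as fatty acids, and FABP2 is the carrier of the intestinal epithelium. FABP3 serves heart and skeletal muscle, FABP4 adipocytes, and FABP5 epidermis, endothelium, macrophages and fat, while FABP7 is known from radial glia and brain. Several FABPs hand fatty acids to the nuclear receptors of the PPAR family, and Fabp1 and Fabp4 are themselves known PPAR targets. Fabp4 is also switched on outside fat, in the lipid-laden hepatocytes of obese mice, in macrophages and in capillary endothelium.

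Levels are given as FPKM, fragments per kilobase of transcript scaled to the depth of the library, a scale that is per length and so lets genes be compared with each other. Aligned bases came to between 5.72 and 9.24 gigabases per library. Mkrn1 itself, which checks the genotype, stood at 9.42 and 10.1 FPKM in the 2 WT livers against 2.86 and 2.21 in the null livers, and at 16.8 and 19.3 against 4.58 and 2.90 in adipose tissue. MKRN1-null adipose replicate 2 stood apart. The 9 skeletal muscle markers summed to 83108 FPKM in it, which was 15.6% of its FPKM, against 78.7 to 272 in the other 3 adipose libraries. It was also the shallowest library. MKRN1-null adipose replicate 1 held 3076 FPKM of the haemoglobin gene Hbb-bs, against 18.5 to 71.9 in the other adipose libraries.

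The 6 genes share one build. Each has 4 exons in its main transcript, and the second exon is 173 bases long in all 6, while the third is 102 bases in Fabp3, Fabp4, Fabp5 and Fabp7, 93 in Fabp1 and 108 in Fabp2. On mm10, the build of the files, Fabp1 lies at chr6:71199888-71205023, Fabp2 at chr3:122895072-122899506, Fabp3 at chr4:130308778-130315463 and Fabp7 at chr10:57784923-57788450, all on the plus strand. Fabp5 (chr3:10012585-10016610, plus strand) and Fabp4 (chr3:10204343-10208576, minus strand) are neighbours within 196 kb. Fabp2 overlaps 4933405D12Rik and Fabp3 overlaps Zcchc17, and the libraries keep no strand, so reads in those overlaps cannot be assigned to one gene with certainty. Fabp5 has 3 transcripts in the annotation, of which 1 carried most of its reads, and the other 5 genes have 1 each. RefSeq also lists the Fabp5-like gene Fabp5l2 and a Fabp3 pseudogene, which were not analysed here, so reads of Fabp5 and Fabp3 that fit such copies are uncertain.

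One member dominated in each tissue, and it was a different one. Fabp1 made up 97.7 to 98.3% of the summed FPKM of the 6 genes in the 4 livers, and Fabp4 made up 97.9 to 98.9% in the 4 adipose libraries. Together the 6 genes took 1.56 to 2.10% of all FPKM in liver. In adipose tissue they took 5.51, 6.19 and 6.16% of all FPKM in WT replicates 1 and 2 and the first null replicate, in that order, and 2.44% in the second null replicate. Fabp4 was the highest of all genes in the former 3 adipose libraries and the fifth in the latter. Fabp1 ranked 4 to 6 in liver.

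**Figure D1:**
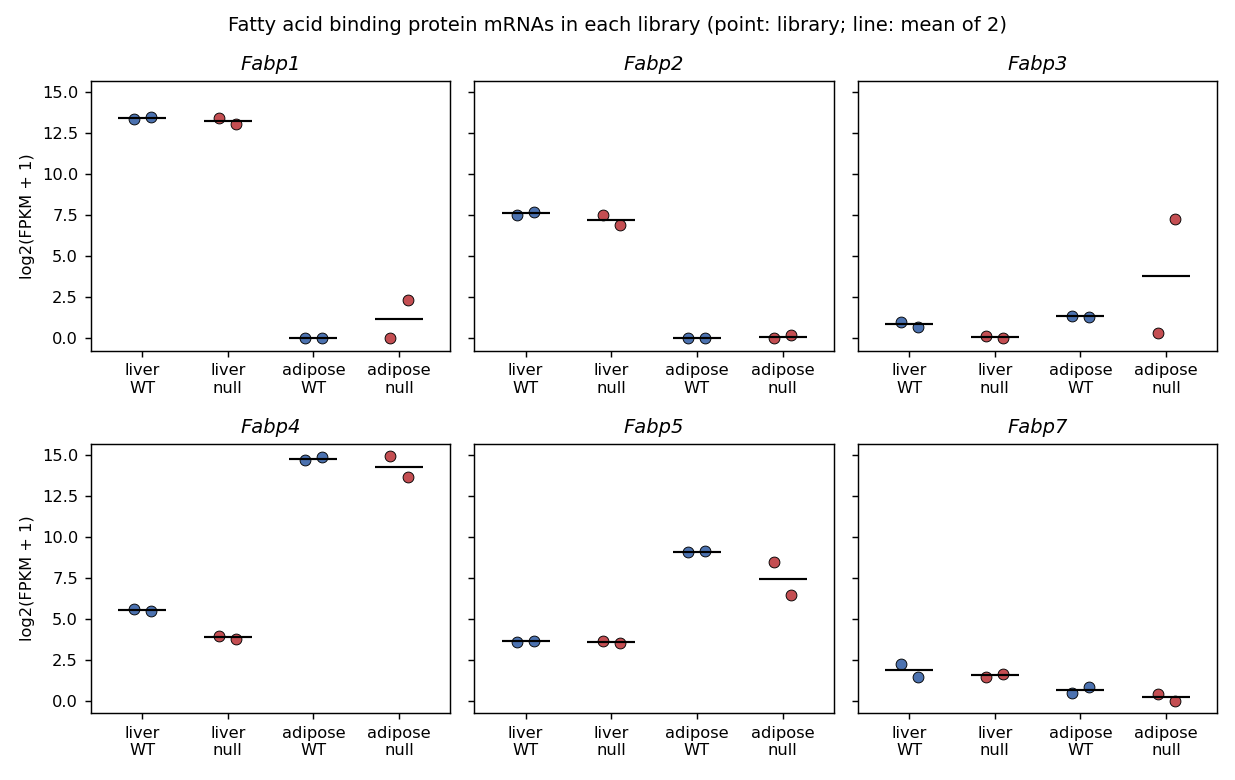
Level of each FABP mRNA as log2(FPKM + 1) in each of the 8 libraries, with WT in blue, MKRN1-null in red, and a line at the mean of 2 libraries. Fabp1 and Fabp2 are high only in liver, Fabp4 and Fabp5 are highest in adipose tissue, and Fabp3 has 1 high library, MKRN1-null adipose replicate 2 at 152 FPKM.

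The order of the members was first set out in WT mice, where liver and adipose tissue were compared by limma on log2(FPKM + 1) over 12782 genes. In WT liver the order was Fabp1 (10872 ± 578 FPKM, mean ± SD, n = 2), Fabp2 (198 ± 17.7), Fabp4 (45.9 ± 1.90), Fabp5 (11.5 ± 0.138), Fabp7 (2.80 ± 1.51) and Fabp3 (0.822 ± 0.271). The values of neighbours in this order did not overlap. In WT adipose tissue it was Fabp4 (27836 ± 3151), Fabp5 (548 ± 20.3), Fabp3 (1.54 ± 0.0898) and Fabp7 (0.623 ± 0.273), with Fabp1 and Fabp2 listed at 0. At an adjusted p under 0.05, 3 members were higher in liver, where 17.9% of all genes tested were, and 3 were lower, where 62.3% were. The 3 higher members, Fabp1, Fabp2 and Fabp7, reached the filter (1 FPKM or more in at least 2 libraries) through the livers alone. A higher level in liver was thus built into their entry. The median of all genes in this comparison was −0.59 on the log2 scale, and it moved to 0.02 with median-of-ratios scaling.

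Fabp4 mRNA was 606 times as high in WT adipose tissue as in WT liver (difference in log2(FPKM + 1) of liver minus adipose −9.21, SE 0.12, adjusted p = 1.66e-06), and Fabp5 mRNA was 47.9 times as high (−5.46, SE 0.08, adjusted p = 1.85e-06). For Fabp1 and Fabp2 no fold can be given, because both were listed at 0 in WT adipose tissue. Their log2(FPKM + 1) was 13.41 and 7.63 higher in WT liver. Fabp7 was 1.18 higher in liver (SE 0.30, adjusted p = 0.0169), from 3.87 and 1.74 FPKM against 0.429 and 0.816. It reached the filter through its liver values alone, and the call was lost without WT adipose replicate 1 (1.01). Fabp3 was lower in liver by the main test (−0.49, SE 0.13, adjusted p = 0.0207), but this did not hold with median-of-ratios scaling (−0.11) and turned with quantile normalization (0.10). Fabp3 was under 2 FPKM in all 4 WT libraries.

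The liver members came with different sequences upstream. Promoter sequences of RefSeq on GRCm38.p6 were at hand for 4 of the 6 members, Fabp1, Fabp2, Fabp3 and Fabp7, and not for Fabp4 and Fabp5. The 250 bases before the annotated start are shown for the pair that was high only in liver, Fabp1 (chr6:71199629-71199878) and Fabp2 (chr3:122894822-122895071), and for Fabp3 (chr4:130308488-130308737), the muscle member, all 5′ to 3′ on the plus strand. Capitals mark matches to a few short motifs on either strand: the TATA box TATAAA, the CCAAT box (its name being its letters), the nuclear receptor half-site AGGTCA, a direct repeat of the letters AGGNCA with 1 base between the copies (the kind of element that PPAR and HNF4A bind), the HNF1 half-site GTTAAT and the C/EBP-like site TTGCNNAA.
Fabp1: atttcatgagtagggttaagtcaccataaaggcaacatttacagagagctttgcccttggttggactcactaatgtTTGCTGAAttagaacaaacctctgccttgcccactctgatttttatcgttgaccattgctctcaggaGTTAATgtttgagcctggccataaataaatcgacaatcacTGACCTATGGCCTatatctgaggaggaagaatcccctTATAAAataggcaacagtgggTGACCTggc
Fabp2: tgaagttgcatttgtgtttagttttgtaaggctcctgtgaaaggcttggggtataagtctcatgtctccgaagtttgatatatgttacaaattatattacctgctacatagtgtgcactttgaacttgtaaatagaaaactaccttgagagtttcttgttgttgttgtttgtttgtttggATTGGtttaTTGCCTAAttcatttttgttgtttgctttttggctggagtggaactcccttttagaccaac
Fabp3: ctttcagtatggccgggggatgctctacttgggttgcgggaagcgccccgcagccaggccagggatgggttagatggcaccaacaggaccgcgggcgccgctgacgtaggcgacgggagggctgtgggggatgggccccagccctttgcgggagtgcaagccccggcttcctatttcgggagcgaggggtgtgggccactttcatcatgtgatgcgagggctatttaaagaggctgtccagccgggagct

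In the Fabp1 stretch the direct repeat lies on the minus strand and begins at −67, counted from the start, and includes one of 2 AGGTCA matches. Of all 32851 promoters in the table, 0.338% hold that repeat in the same 250 bases and 14.0% hold AGGTCA. Fabp1 also has TATAAA at −30 (12.4% of promoters) and GTTAAT at −107 (6.43%). TTGCNNAA lies in both Fabp1, at −174, and Fabp2, at −61 (9.56%), and CCAAT in Fabp2 at −70 (33.8%). Fabp7 holds 2 CCAAT matches and 1 AGGTCA, and Fabp3 holds none of these letters. The stretches also differ in base composition: G and C make up 35.6% of the bases for Fabp2, 42.8% for Fabp1, 54.8% for Fabp7 and 64.8% for Fabp3, where the median promoter has 52.4%. These matches are a description of the letters only.

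MKRN1-null liver was compared with WT liver for the carrier that belongs to hepatocytes and those that belong elsewhere. A difference between members was tested only by the within-library ratios given further on. Of the 5 members tested, 1 was lower at an adjusted p under 0.05, Fabp4, and none was higher. Among all 10808 genes tested, 16.9% were lower and 2.52% higher by the same rule. One member past the threshold out of 5 is thus near the background for a liver gene. The median difference of the 5 members was −0.29 on the log2 scale, against −0.17 for all genes tested. With median-of-ratios scaling the median of all genes was 0.05.

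Fabp4, the adipocyte and macrophage carrier, fell in the null livers. Its FPKM was 47.3 and 44.6 in the WT livers and 14.7 and 12.8 in the null livers. The groups were well separated, and both null values were about the same. The mean was 3.34 times as high in WT, a difference in log2(FPKM + 1) of −1.67 (SE 0.10, 95% interval −1.93 to −1.41, adjusted p = 0.00775). The call held when each of the 4 libraries was left out in turn and under both other scalings. It was lost when all 8 libraries shared one estimate of the spread (adjusted p = 0.101), a fit that takes in the divergent adipose library. Even in null liver Fabp4 was not near 0, and 54 to 59 kilobases of aligned sequence stood behind it per library.

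All 4 exons of Fabp4 took part in the fall. The FPKM of the first exon was 37.5 and 36.3 in WT and 14.2 and 13.3 in null livers, and that of the third was 79.0 and 74.8 in WT and 22.6 and 16.9 in null livers. The mean of the null livers was 0.372, 0.312, 0.257 and 0.272 of that of the WT livers for exons 1 to 4. In adipose tissue the same ratios ran from 0.760 to 0.825, with overlapping groups at each exon.

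**Figure D2:**
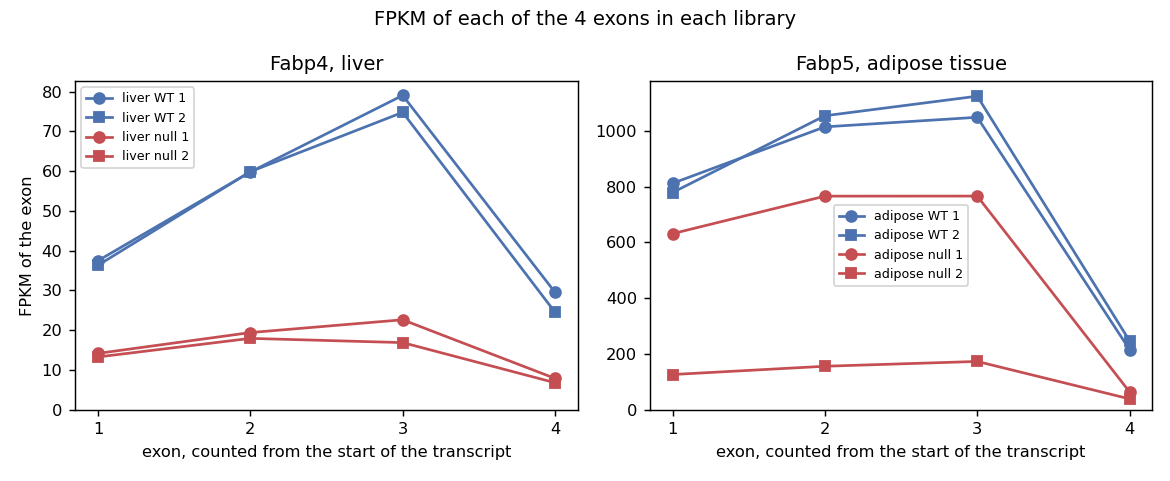
FPKM of exons 1 to 4, counted from the start of the transcript and summed over transcripts, for Fabp4 in the 4 livers (left) and Fabp5 in the 4 adipose libraries (right), WT in blue and MKRN1-null in red. Both null livers lie below both WT livers at each exon of Fabp4, and the 2 null adipose libraries lie far apart at exons 1 to 3 of Fabp5.

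Fabp1, the hepatocyte carrier, was 10463 and 11281 FPKM in the WT livers and 10857 and 8552 in the null livers. The groups overlapped, since null replicate 1 lay between the WT libraries. The difference was −0.17 (SE 0.16, interval −0.60 to 0.25, adjusted p = 0.471), which equals the median of all genes, and it turned to 0.09 with median-of-ratios scaling. It was −0.35 without null replicate 1 and close to 0 without null replicate 2, and passed in neither fit. The interval leaves out a fall of the size measured for Fabp4.

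Fabp2 is known as the carrier of the small intestine, yet it was the second member in liver. It was 185 and 210 FPKM in the WT livers and 181 and 119 in the null livers. Both null livers were below both WT livers, as for 57.6% of all genes tested, but null replicate 1 was close to WT replicate 1. The difference was −0.42 (SE 0.22, interval −0.98 to 0.14, adjusted p = 0.211). It was −0.72 without null replicate 1 (adjusted p = 0.0690) and −0.13 without null replicate 2 (adjusted p = 0.610). Markers of intestinal epithelium (Vil1, Cdx1, Cdx2, Lct and Alpi) summed to 0.0050 to 0.134 FPKM in the livers, and Cdx2 and Alpi were at 0 in all 4.

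Fabp5, the carrier of epidermis, endothelium and macrophages, was nearly level: 11.4 and 11.6 FPKM in the WT livers and 11.7 and 10.5 in the null livers. The null values enclosed the WT values. The difference was −0.05 (SE 0.09, interval −0.29 to 0.19, adjusted p = 0.724), and its sign turned with median-of-ratios scaling (0.19), with quantile normalization (0.14) and without null replicate 2 (0.02). The 5 epidermis markers summed to 0.926 to 1.22 FPKM in the livers, of which Krt10 was 0.682 to 0.774 and Lor 0.171 to 0.443, and Krt5 and Krt14 were at 0.0152 or less.

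The scarce members gave less. Fabp7 was 3.87 and 1.74 FPKM in the WT livers and 1.76 and 2.21 in the null livers, resting on 8.4 to 17.9 kilobases of aligned sequence. WT replicate 1 was the high library, and the null values lay above WT replicate 2. The difference was −0.29 (SE 0.29, interval −1.05 to 0.47, adjusted p = 0.495), and it was 0.12 without WT replicate 1 and −0.71 without WT replicate 2 (adjusted p = 0.0564). The 5 Schwann cell and glia markers summed to 0.673 to 1.23 FPKM in the livers, with Sox10 at 0.0119 or less.

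Fabp3, the muscle carrier, was 1.01 and 0.630 FPKM in the WT livers, 0.117 in null replicate 1 and listed at 0 in null replicate 2. It did not reach 1 FPKM in at least 2 of the 4 livers and so was not in the main test. It rested on 3.93 and 3.01 kilobases of aligned sequence in the WT livers and 0.468 in null replicate 1. Where the filter let it in, it was lower in null liver, by −1.17 on TPM (adjusted p = 0.0220) and −0.78 on FPKM with no filter (adjusted p = 0.0444). Both null values lay below both WT values, as for 57.6% of the genes in the main test, and all were low. On TPM it passed the filter through the WT livers alone (1.88 and 1.13, against 0.203 and 0 in null livers). A lower null level was thus built into its entry.

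**Figure D3:**
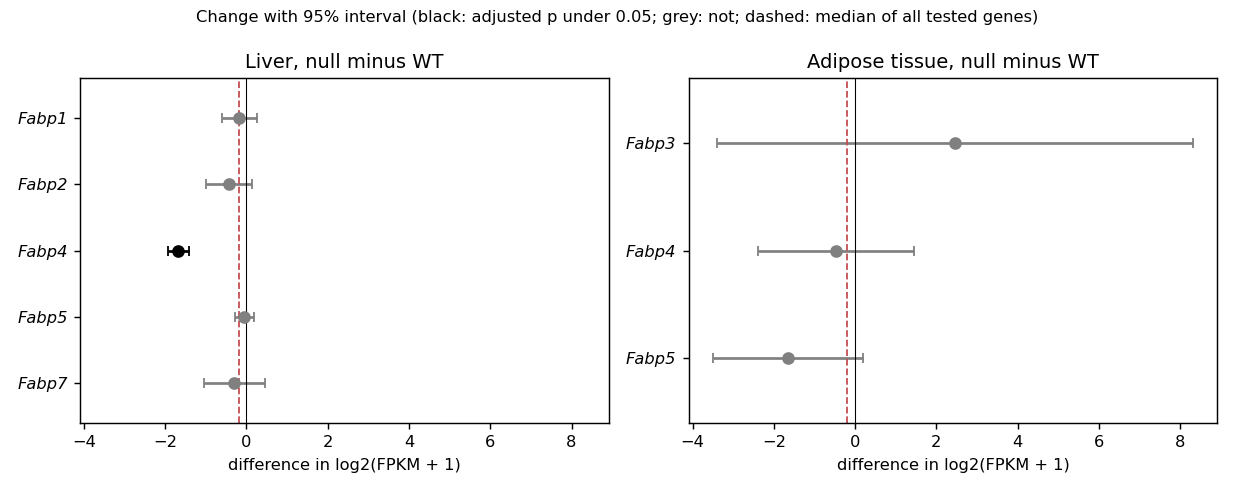
MKRN1-null minus WT difference in log2(FPKM + 1) of the members tested, with 95% intervals from limma, in liver (left) and adipose tissue (right). Fabp4 in liver (−1.67) is the member drawn in black, at an adjusted p under 0.05, and the dashed line is the median of all genes tested.

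Cells other than hepatocytes also express Fabp4 and Fabp5, and in bulk tissue fewer cells of a type and less RNA per cell cannot be told apart. The 6 adipocyte markers summed to 14.6 and 23.8 FPKM in the WT livers and 32.3 and 14.5 in the null livers, and the groups overlapped. Most of this came from Cfd (5.50 to 23.5) and Lipe (6.58 to 8.68). Adipoq was 0.148 to 0.225 FPKM, Plin1 0.032 to 0.111, Lep 0.038 to 0.098 and Retn 0.048 to 0.106. Adipoq and Plin1 overlapped between the groups. Lep was lower in both null livers and Retn was higher in both, at levels near the floor. Endothelial markers summed to 45.8 and 28.5 FPKM in the WT livers and 18.6 and 22.9 in the null livers. Of these 6 markers 1 was lower by limma at an adjusted p under 0.05, Emcn (−0.88, adjusted p = 0.0297). All 6 had both null livers below both WT livers, as 57.6% of all genes tested did. The median difference of the 6 was −0.68 on the log2 scale, against −0.17 for all genes tested. Macrophage markers summed to 96.3 and 40.8 in the WT livers and 49.6 and 53.8 in the null livers. Of these 6, Cd68 was lower (−1.21, adjusted p = 0.0282), and Adgre1 (−0.89, adjusted p = 0.0706) and Csf1r (−0.74, adjusted p = 0.126) did not pass. Both null livers were below both WT livers for Cd68, Adgre1 and Csf1r. The groups overlapped for Mrc1 (−0.51), Marco (0.99) and Clec4f (0.27). The median difference of the 6 macrophage markers was −0.62. Clec4f of Kupffer cells was 42.1 and 11.4 in WT and 24.8 and 29.3 in null livers, the largest of the 6 in each liver. The part of endothelial cells and macrophages in the Fabp4 difference was not tested. Of the 8 hepatocyte markers, 3 were higher in null liver at an adjusted p under 0.05 (Serpina1a, Cyp2e1 and Hnf4a) and 1 was lower (Apob). Over all genes tested, 2.52% were higher and 16.9% lower by that rule.

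Ratios within a library do not depend on the scaling between libraries. The ratio of Fabp4 to Fabp5 was 4.16 and 3.86 in the WT livers and 1.26 and 1.23 in the null livers. That of Fabp1 to Fabp4 was 221 and 253 in the WT livers and 739 and 667 in the null livers. The ratio of Fabp2 to Fabp1 was 0.0177 and 0.0186 in WT and 0.0167 and 0.0139 in null livers. For each of these 3 ratios both null livers lay on one side of both WT livers. With 2 against 2 libraries the exact permutation test (two-sided) cannot go below p = 0.333, which is what each of them gave, and the adjusted p over the 7 ratios tested was 0.583. The ratio of Fabp5 to Fabp1 and that of Fabp7 to Fabp1 overlapped between the groups (exact permutation p = 0.667 and 1).

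The genes that work around these carriers moved in both directions in liver. For these lists too, the shares over all genes tested were 16.9% lower and 2.52% higher. Of the receptors, 2 of 6 tested were lower and none higher. Pparg, the PPAR of fat cells and fatty liver, was 17.6 and 19.8 FPKM in WT and 6.36 and 4.48 in null livers (−1.63, SE 0.17, adjusted p = 0.0136), and its partner Rxrg was lower too (−0.80, adjusted p = 0.0314). Ppara, the PPAR of hepatocytes, was 60.1 and 46.5 in WT and 60.1 and 48.2 in null livers (0.02, adjusted p = 0.931).

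Of 9 genes of fatty acid entry and activation, 3 were lower and 2 higher. Cd36, a membrane protein that aids fatty acid uptake, was 86.8 and 73.6 FPKM in WT and 17.7 and 11.5 in null livers (−2.41, SE 0.22, adjusted p = 0.0112). The acyl-CoA synthetase gene Acsl3 (−1.14, adjusted p = 0.0193) and the transporter gene Slc27a4 (−0.53, adjusted p = 0.0214) were lower. Acsl5, another of these synthetase genes, was 163 and 181 FPKM in WT and 120 and 83.2 in null livers and did not pass (−0.78, adjusted p = 0.0514). Acsl1, a main hepatic acyl-CoA synthetase, was higher (0.48, adjusted p = 0.0245), as was Slc27a5, the very long-chain and bile acid acyl-CoA synthetase of hepatocytes (0.41, adjusted p = 0.0357).

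Of 5 lipase genes tested, 2 were lower. Lpl, lipoprotein lipase, was 8.93 and 7.49 FPKM in WT and 2.20 and 2.12 in null livers (−1.54, SE 0.11, adjusted p = 0.00927), and Mgll, monoacylglycerol lipase, was lower by the same test (−0.76, adjusted p = 0.0301). Of 6 acyl-CoA and sterol carriers none was called in either direction, with 0 of 6 also at an unadjusted p under 0.05 and an absolute change of 0.58. Dbi, the acyl-CoA binding protein, was 1457 and 1559 FPKM in WT and 1183 and 906 in null livers (−0.54, adjusted p = 0.0705).

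In adipose tissue no member passed, and neither did Mkrn1, the gene lost in these mice (limma, −2.02, SE 0.26, adjusted p = 0.680). A lack of calls there thus does not show a lack of change. By limma 0 of 3 members tested and 0% of 12149 genes had an adjusted p under 0.05, and at an unadjusted p under 0.05 there were 0 members and 783 genes. At a looser limit (limma's unadjusted p at most 0.05 and an absolute log2 change of at least 0.58, where the study set its cutoff on a combined p from permutation tests of its read counts) 0 members passed, where 0.708% of all genes were higher and 5.35% lower. The median difference of all genes tested was −0.20, and 0.01 with median-of-ratios scaling.

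Fabp4 was 25608 and 30064 FPKM in WT adipose tissue and 30971 and 12745 in null adipose tissue. Null replicate 1 was the highest of the 4 and null replicate 2 the lowest. The difference was −0.48 (SE 0.73, interval −2.40 to 1.44, adjusted p = 0.789). Without null replicate 2 it was 0.16, and without null replicate 1 it was −1.12, each a fit with 1 null library. Its ratios to other adipocyte mRNAs of the same library did not share one pattern. The ratio of Fabp4 to Adipoq was 8.83 and 10.5 in WT and 8.10 and 7.65 in null libraries, and that of Fabp4 to Plin1 was 30.2 and 41.6 in WT and 41.2 and 29.0 in null libraries. Its ratio to Lep was 19.2 and 24.4 in WT and 23.0 and 41.7 in null libraries, and its ratio to Cfd was 20.8 and 23.7 in WT and 6.10 and 2.32 in null libraries. Cfd itself was higher in both null libraries, at 5077 and 5483 FPKM against 1231 and 1271 in WT. Adipoq encodes the adipokine adiponectin Plin1 the main coat protein of adipocyte lipid droplets, Lep the hormone leptin and Cfd the protease adipsin.

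Fabp5 was 534 and 563 FPKM in WT and 348 and 87.3 in null adipose tissue. Both null libraries were below both WT libraries, as for 36.1% of all genes tested, and they differed widely from each other. Null replicate 1 was short of reads in the last exon (64.0 FPKM, against 216 and 247 in WT). Exons 1 to 3 were also lower in both null libraries than in both WT libraries. The difference was −1.65 (SE 0.71, interval −3.50 to 0.20, adjusted p = 0.680), and it was −0.66 without null replicate 2 (adjusted p = 0.200) and −2.64 without null replicate 1 (adjusted p = 0.00233). The latter fit rests on the library with the muscle markers as the lone null library, which is assumed to vary like the WT libraries, and 6300 genes are called in it. The ratio of Fabp5 to Adipoq was 0.184 and 0.196 in WT and 0.0909 and 0.0524 in null libraries. That of Fabp5 to Plin1 was 0.631 and 0.779 in WT and 0.462 and 0.199 in null libraries. For both ratios the null libraries lay below the WT libraries. Endothelial markers summed to 189 and 248 FPKM in WT and 130 and 64.6 in null adipose tissue, and macrophage markers to 217 and 287 in WT and 206 and 71.7 in null adipose tissue. By the looser limit above, 4 of 6 endothelial markers and 0 of 5 macrophage markers tested were lower, where 5.35% of all genes were. The part of endothelial cells and macrophages in the Fabp5 values was not tested.

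**Figure D4:**
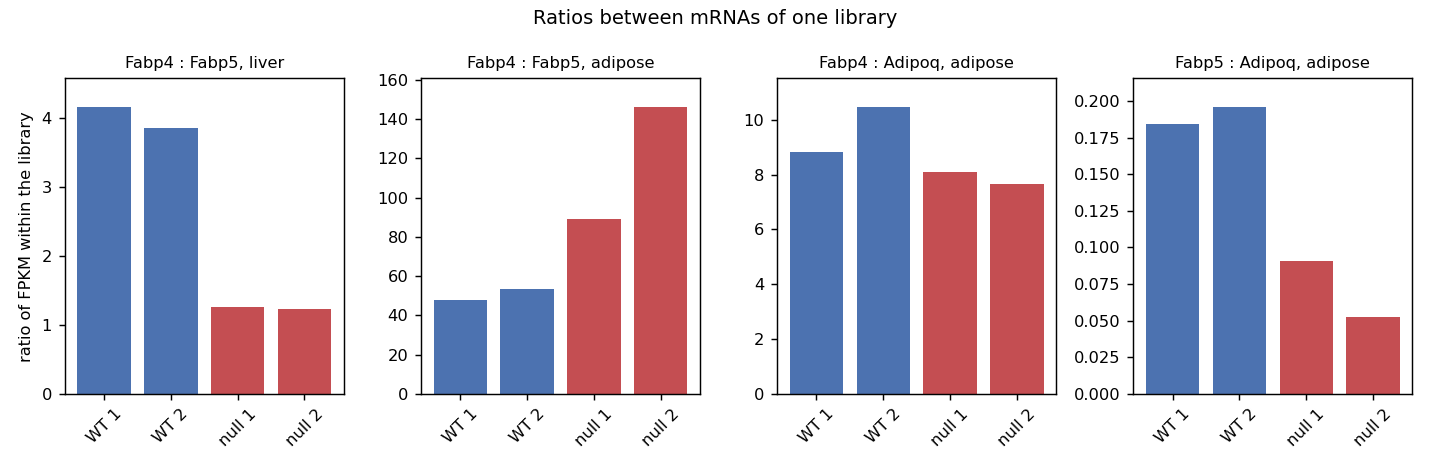
Ratios of FPKM within single libraries, WT in blue and MKRN1-null in red, each panel with its own axis from 0. The Fabp4 to Fabp5 ratio is lower in both null livers (1.26 and 1.23) than in the WT livers and higher in both null adipose libraries (89.1 and 146) than in WT adipose tissue, and the Fabp5 to Adipoq ratio is lower in both null adipose libraries.

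Fabp3 was at 1.60 and 1.48 FPKM in WT adipose tissue, 0.285 in null replicate 1 and 152 in null replicate 2. The high value stood in 1 library, which was also the one with the muscle markers Acta1 (18463 FPKM) and Ckm (14652). Of the 4 brown adipocyte markers, Ucp1 (32.6 FPKM, against 0.054 to 0.675 in the other 3) and Cox8b (489, against 31.4 to 65.9) were also highest there, while Elovl3 was lowest there (0.779, against 0.970 to 2.18) and Dio2 was not (0.290, against 0.210 to 0.671). The parts of muscle and brown adipocytes in the Fabp3 value were not tested. Every exon of Fabp3 was covered there, with the second exon at 215 FPKM. The difference was 2.47 (SE 2.24, interval −3.39 to 8.32, adjusted p = 0.698), and it turned to −0.98 without that library (adjusted p = 0.173). It was 5.91 without null replicate 1, 2.50 without WT replicate 1 and 2.43 without WT replicate 2, each a fit with 1 library in a group. The slow-muscle genes Myh7 and Tnni1 were at 0.143 FPKM or less in all 4 adipose libraries, whereas the fast-muscle gene Myh4 was 6999 FPKM in null replicate 2.

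Traces of the liver members appeared in the same library. Fabp1 was 4.01 FPKM in null replicate 2, with all 4 exons covered, and listed at 0 in the other 3 adipose libraries, and Fabp2 was 0.153 there and listed at 0 in those 3. Of the 8 hepatocyte markers, 6 were highest there too, Apoa1 (3.02 FPKM), Ttr (1.89), Alb (16.5), Apob (0.0882), Tat (0.0733) and Hnf4a (0.0633). Cyp2e1 was highest in null replicate 1 (451, against 278 in null replicate 2), Serpina1a was lowest in null replicate 2 (1.87), and the summed level of the list was 463 in null replicate 1 and 302 in null replicate 2. Neither gene was tested in adipose tissue, and the source of these reads was not tested. Fabp7 was 0.429 and 0.816 in WT adipose tissue, 0.372 in null replicate 1 and listed at 0 in null replicate 2. It stayed below the filter and was not tested.

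None of the genes around the carriers passed the test in adipose tissue. Of 6 receptors, 8 genes of entry and activation, 6 lipases and 6 acyl-CoA and sterol carriers, 0 had an adjusted p under 0.05 by limma, and 0 passed the looser limit. Pparg was 115 and 116 FPKM in WT and 102 and 54.5 in null adipose tissue (−0.62, adjusted p = 0.680).

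Whether a member changed differently in liver and adipose tissue was tested by the interaction of tissue and genotype, which could be had for the 2 members tested in both. Neither passed, as was so for 0% of the 9905 genes tested, and at an unadjusted p under 0.05 there were 0 members and 766 genes. For Fabp4 the liver change minus the adipose change was −1.19 (SE 0.56, adjusted p = 0.693), which became −0.55 without null adipose replicate 1 (adjusted p = 0.0719) and −1.83 without null adipose replicate 2 (adjusted p = 0.0169). For Fabp5 it was 1.60 (SE 0.79, adjusted p = 0.718), which became 2.59 without null adipose replicate 1 (adjusted p = 0.000302) and 0.61 without null adipose replicate 2 (adjusted p = 0.0718). Of all genes, 2647 passed without null adipose replicate 1 and 307 without null adipose replicate 2, so each member's call rests on which null library is kept. These fits share the WT and null libraries of the comparisons above and add no samples.

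Fabp4 and Fabp5 sit in one group of FABP genes on chromosome 3, and their neighbours were measured as well. Between them lie Gm9833, Pmp2 (also called Fabp8, the carrier of peripheral myelin) and Fabp9 (of the testis), and Fabp12 follows Fabp4. Pmp2, Fabp9 and Fabp12 were at 1.74 FPKM or less in all 8 libraries, and Pmp2 and Fabp9 were listed at 0 in all 4 livers. Of the genes that start within 200 kb of the stretch, Impa1 (0.12, adjusted p = 0.510), Slc10a5 (0.05, adjusted p = 0.775) and Zfand1 (−0.21, adjusted p = 0.157) were tested in liver beside the 2 members, and none of these 3 passed. Of the 5 genes of this stretch tested in liver, 1 passed, Fabp4, which was lower. Over all genes tested in liver, 16.9% were lower and 2.52% higher, so 1 of 5 is near that share. Slc10a5 showed the reverse tissue pattern, at 7.69 to 9.51 FPKM in liver and 0.0090 or less in adipose tissue. Pag1 and Chmp4c were under 1 FPKM in at least 3 of the 4 livers and were not tested there.

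**Figure D5:**
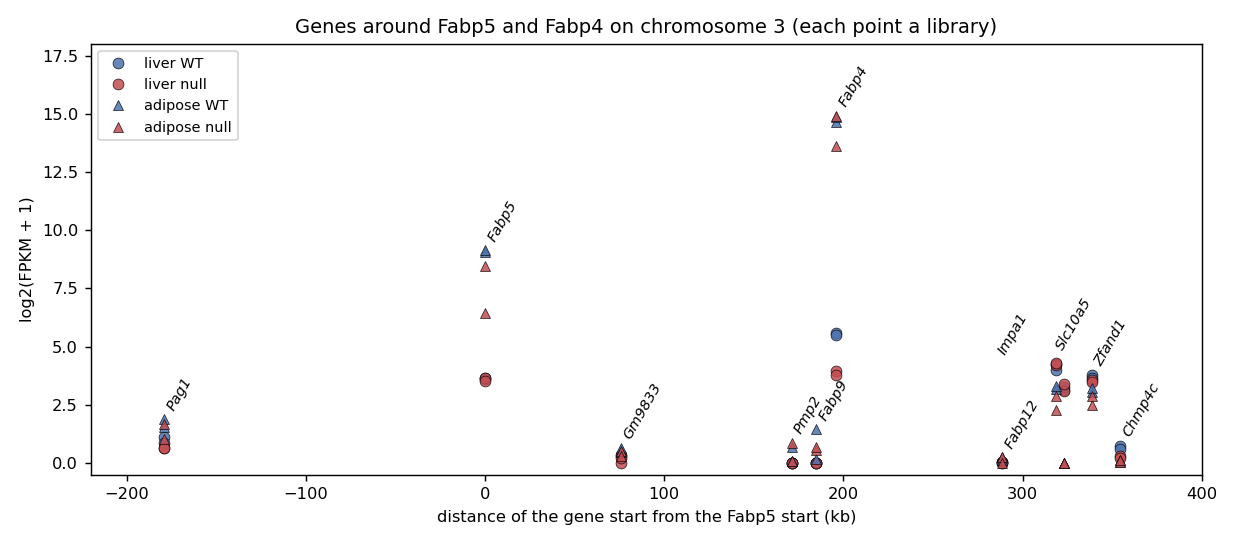
Level of each gene around Fabp5 and Fabp4 as log2(FPKM + 1) against the distance of its start from that of Fabp5 in kb, with circles for liver, triangles for adipose tissue, blue for WT and red for MKRN1-null libraries. Fabp5 and Fabp4 (196 kb away) are the high genes in adipose tissue, and the FABP genes Pmp2, Fabp9 and Fabp12 near Fabp4 are close to 0.

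The genes whose profile over the 8 libraries was most like each member were found by the root mean square difference of centred log2(FPKM + 1) among 12614 genes, as a description. A pattern shared with the member follows from this choice. Fabp1 was nearest to Apoa2 (0.21), Apoa1 (0.24) and Ttr (0.44), all abundant secreted products of hepatocytes. Fabp2 was nearest to Cpn1 (0.18), Krt18 (0.20) and Spp2 (0.22), of which the keratin gene Krt18 was lower in null liver (−0.86, adjusted p = 0.0182). Fabp4 was nearest to Lpl (0.57), Sncg (0.62) and Lep (0.65), genes at 306 to 3125 FPKM in adipose tissue, and none of these was as close as the neighbours of Fabp1. Fabp5 was nearest to Lctl (0.19), Crtac1 (0.27) and Cldn15 (0.28), which did not pass limma's adjusted test in adipose tissue (adjusted p = 0.680 for each). These were all lower in both null adipose libraries than in both WT ones, as were 36.1% of all genes tested. Fabp3 was nearest to Pfkm (0.35), Srl (0.38) and Pdlim3 (0.38), genes of muscle that were also high in null adipose replicate 2. Fabp7 was nearest to Ttc7 (0.10), Flt4 (0.12) and Cdk6 (0.17), where WT liver replicate 1 was the highest library for all 3, as for Fabp7.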

How the data were processed

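RNA of 4 livers and 4 subcutaneous fat samples was measured. The authors deposited 1 table per library, with coverage, FPKM and TPM of 36780 annotated transcripts. The tools were HISAT2, SAMtools and, at version 1.3.3b, StringTie, and the build was mm10. The paper's methods name TopHat2, Cufflinks and HTSeq instead. FPKM and TPM as deposited are scaled to library depth and are not counts, so no count test was run. Values that other transcripts share are split by StringTie's estimate, which bears most on genes with several transcripts.

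The FPKM of all transcripts of a gene were added up, with 24462 of 24532 Entrez IDs matched to a symbol. Exon FPKM was exon coverage divided by the aligned gigabases of the library. Genes at 1 FPKM or more in at least 2 libraries of a fit were tested on log2(FPKM + 1), a scale that understates changes of low genes, with limma 3.58.1 in R 4.3.3 (lmFit, eBayes with trend), intervals are at 95%, and p was adjusted by Benjamini-Hochberg over all tested genes. The steps were tested on simulated data. Tables and figures were made with Python 3.11.15, pandas 2.3.3, numpy 2.4.6 and matplotlib 3.10.9. With 2 libraries a group, p sets a group difference against the spread between these libraries, which limma moderates with that of all genes tested. The labels do not say how the libraries were kept apart. The correlation of deviations between libraries with the same replicate number was 0.01 to 0.11 over the 4 pairs of groups, and the numbers were not taken as pairs.

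Alternatives were a pseudocount of 0.1, TPM, no filter, a filter at 5 FPKM, median-of-ratios scaling, quantile normalization, no trend, the highest transcript alone, all 8 libraries in one fit, the replicate number as a block, removal of the share of muscle markers, and each library left out in turn. Members and gene lists were chosen with earlier results of these data known. Named genes were all members, up to 4 genes of each list with the largest change past a limit, the genes starting within 200 kb of the Fabp4 and Fabp5 stretch, the 3 nearest profiles of each member, and Mkrn1. Acsl1, Slc27a5, Ppara, Dbi, Pparg in adipose tissue and single cell-type markers were named for their role after their values were seen, and so were the motifs searched in the promoters. Results of some single genes are not reported here.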

Additional observations from a re-analysis of the deposited data

Results flagged for a closer look

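The ratio of Fabp4 to Fabp5 moved in opposite directions in the 2 tissues, in every library. In liver the log2 ratio of null minus WT was −1.69 (4.16 and 3.86 against 1.26 and 1.23), and in adipose tissue it was 1.17 (48.0 and 53.4 against 89.1 and 146). The difference between the tissues was not tested, and the exact permutation test of either tissue gave p = 0.333, the smallest it can give. Each null adipose library has a limit here. Replicate 2 held 15.6% of its FPKM in muscle markers. In replicate 1 the last exon of Fabp5 was short of reads, at 0.0835 of the third exon against 0.206 and 0.220 in WT adipose tissue.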

How the results depend on the processing

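With TPM, Fabp3 reached the filter in liver through the WT livers alone. Of 5 liver members, 1 passed by the main test, 2 with TPM or with no filter (Fabp4 and Fabp3), and 0 with all 8 libraries in one fit. Leaving out each library in turn left it at 1. In adipose tissue 0 of 3 passed by the main test. Without one library the number depended on which one was left out, and each such fit has 1 library in a group. Fabp3 there ranged from −0.98 to 5.91 and Fabp4 from −1.12 to 0.16 without one library. In the WT comparison of tissues 6 passed, and 2 to 5 without one library (3 without WT liver replicate 1 and 2 without WT liver replicate 2, where Fabp1, Fabp2 and Fabp7 no longer reach the filter). Fabp3 there was 0.10 by quantile normalization. The interaction called 0 members, and 0 to 1 without one library. In liver, Fabp1 was 0.0909 and Fabp5 0.19 with median-of-ratios scaling, Fabp5 was 0.14 by quantile normalization, and without one library Fabp5 ranged from −0.1213 to 0.0234 and Fabp7 from −0.71 to 0.12. Over all genes, the liver call count of 2103 was 1313 with median-of-ratios scaling, 1033 by quantile normalization, 226 with all 8 libraries and 52 without null replicate 2, and the adipose count of 0 became 6300 without null replicate 1. The causes were not tested. With the replicate number as a block 1 adipose member passed (Fabp3, adjusted p = 5.66e-09) and 422 genes did. With 2 libraries a number this block was not taken as a pairing, and it changed no other member's call. In liver, Fabp3 rested on 0 to 3.93 kilobases of aligned sequence per library and Fabp7 on 8.44 to 17.9. The part of depth in their spread was not tested.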

Other observations

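The last exon of Fabp5 was short of reads in 1 library. Its FPKM divided by that of the third exon was 0.206 and 0.220 in WT adipose tissue, 0.0835 in MKRN1-null adipose replicate 1 and 0.225 in MKRN1-null adipose replicate 2, and 0.189 to 0.266 in the 4 livers. For Fabp4 the same ratio was 0.384 to 0.408 in the 4 adipose libraries. In the library with the low ratio a second Fabp5 transcript, whose last exon begins 3 bases later, was given 39.0 FPKM, against 5.42 and 6.06 in WT adipose tissue and 0 in null replicate 2. The source of the shortfall was not tested.

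Rbp7, a retinol carrier of the same protein family known from adipose endothelium, was 77.0 and 66.7 FPKM in WT and 92.3 and 35.3 in null adipose tissue, and 0.337 FPKM or less in the livers.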
